A study of Mus musculus with 9 samples.

Results

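The inflammasome and pyroptosis genes followed here were 10 named members of the 34745 genes in the deposited expression table of mouse spinal cord. They were the sensors Nlrp3, Aim2, Nlrc4, Naip2 and Naip5, the adaptor Pycard, the pore-forming gasdermins Gsdmd and Gsdme, and the cytokines Il1b and Il18. They were taken by gene symbol, except Gsdme, which the table carries under its older symbol Dfna5 and which was found by its identifier ENSMUSG00000029821. Bulk poly-A RNA was sequenced from the cord of mice with a complete transection at T9, with 3 libraries at day 0, 3 libraries at day 3 and 3 libraries at day 21. The titles of the first group carry no day, and it was taken as day 0 because the design text names 0, 3 and 21 days. The design text lists day 0 among the times after transection and does not say whether those mice were operated, and the labels give no strain, sex, age or distance from the lesion. The labels do not say that the 3 libraries of a group came from separate animals, so the p-values below measure only the spread between these libraries.

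Inflammasomes are cytosolic complexes in which a sensor such as NLRP3 or AIM2 meets the adaptor ASC, encoded by Pycard, and activates caspase-1. The caspase cuts gasdermin D into a membrane pore and matures IL-1 beta and IL-18, and the cell can then die by pyroptosis. In the central nervous system the pathway is best known from microglia and infiltrating myeloid cells, and transcript levels do not show whether any of these proteins was cleaved.

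Total counts ran from 14299679 to 24022923 per library. The day 3 libraries correlated with each other at 0.987 to 0.989 on log2 CPM (counts scaled by library total), whereas day 21 replicate 2 correlated with its own group at only 0.943 and 0.935. Day 0 replicate 1 was the next most distant library, with a limma sample weight of 0.354 beside 0.0583 for day 21 replicate 2 and 1.02 to 2.03 for the others. Neuron markers summed to 2584 to 2601 FPKM (fragment counts scaled by library total and gene length) at day 0, 1262 to 1273 FPKM at day 3 and 1654 to 1859 FPKM at day 21, so the labelled tissue was found in every library. Skeletal muscle markers summed to 14.7 to 18.9 FPKM at day 0, 7.68 to 7.87 FPKM at day 3 and 105 to 186 FPKM at day 21. Schwann cell markers summed to 209.5 to 258.3 FPKM at day 0, 642.4 to 659.7 FPKM at day 3 and 333.1 to 410.1 FPKM at day 21.

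At day 3, 7 of the 9 members with enough counts to test were higher than at day 0 and 1 was lower, where 24.8% of all 16494 tested genes were higher and 19.5% were lower (44.3% in either direction). At day 21 the same count, 7 higher and 1 lower, was found against day 0, where 17.9% of all tested genes were higher and 11.3% were lower (29.2% in either direction). The 7 higher genes were Nlrp3, Aim2, Naip2, Naip5, Pycard, Gsdmd and Il1b in both comparisons, and the lower one was Gsdme. Il18 passed in neither. The median log2 fold change of the tested members was 2.59 at day 3 and 2.07 at day 21, beside 0.01 and 0.02 over all tested genes. Both comparisons share the day 0 libraries. The members were chosen with earlier results of these data known, so these counts and medians are a description and not a test of the group. All calls are edgeR quasi-likelihood tests with Benjamini-Hochberg adjustment over all tested genes and a threshold of 0.05.

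**Figure D1:**
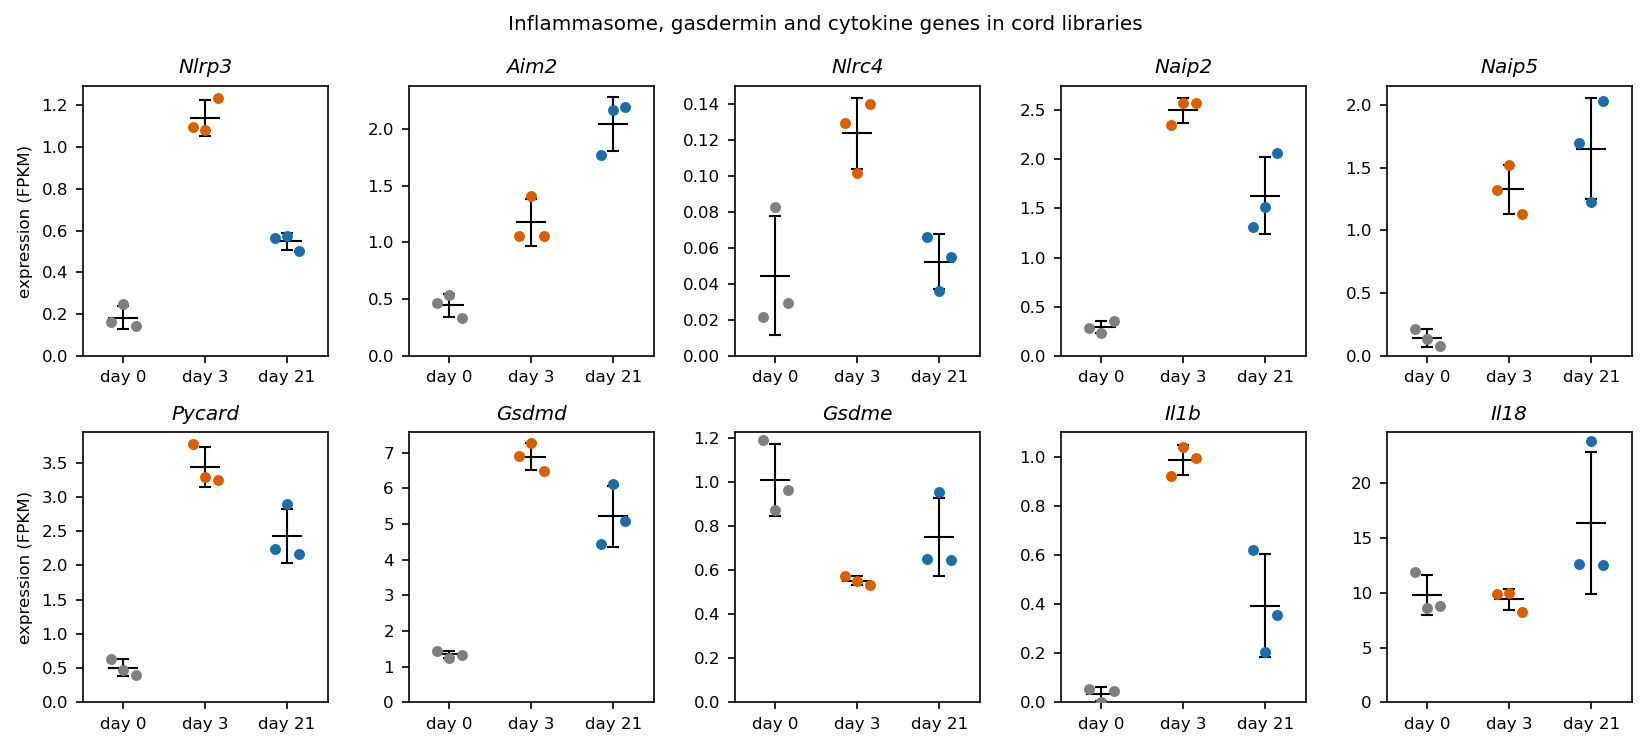
Expression of the 10 genes in FPKM on linear axes that start at 0, with 1 panel per gene and 1 point per library at day 0, day 3 and day 21. Horizontal bars are group means and whiskers are SDs over 3 libraries; Nlrp3 and Il1b stand highest at day 3, Aim2 stands highest at day 21, and Gsdme stands highest at day 0.

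NLRP3 senses potassium loss, membrane damage and many other danger signals. Nlrp3 (chr11:59541568-59566956, plus strand, GRCm38) had 0.162, 0.246 and 0.143 FPKM at day 0, 1.10, 1.08 and 1.24 FPKM at day 3, and 0.567, 0.574 and 0.503 FPKM at day 21. No library of one day overlapped those of another, with day 3 at the top and day 21 between. Its log2 fold change was 2.59 ± 0.22 (SE) at day 3 against day 0 (edgeR adjusted p = 1.73e-05) and 1.46 ± 0.23 at day 21 against day 0 (edgeR adjusted p = 0.00161). These values rest on 286 counts summed over the day 3 libraries and 126 over the day 21 libraries, against 53 over the day 0 libraries.

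AIM2 binds double-stranded DNA in the cytosol. Aim2 (chr1:173350879-173466040, plus strand) had 0.465, 0.535 and 0.333 FPKM at day 0, 1.06, 1.41 and 1.06 FPKM at day 3, and 1.77, 2.17 and 2.19 FPKM at day 21. Its order over days differed from that of Nlrp3: every day 21 library lay above every day 3 library, and every day 3 library above every day 0 library. On the log2 scale Aim2 changed by 1.35 ± 0.21 (SE) at day 3 against day 0 (edgeR adjusted p = 0.0007) and 2.07 ± 0.21 at day 21 against day 0 (edgeR adjusted p = 0.000131).

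The NAIP proteins recognise bacterial flagellin and secretion system parts and pass the signal to NLRC4. Naip2 (chr13:100144063-100202092, minus strand) had 0.286, 0.236 and 0.358 FPKM at day 0, 2.35, 2.57 and 2.58 FPKM at day 3, and 1.31, 1.52 and 2.06 FPKM at day 21. Its neighbour Naip5 (chr13:100211739-100246323, minus strand) had 0.216, 0.134 and 0.0764 FPKM at day 0, 1.33, 1.52 and 1.13 FPKM at day 3, and 1.70, 1.23 and 2.03 FPKM at day 21. Naip2 libraries separated by day, whereas the day 21 and day 3 ranges of Naip5 overlapped. At day 3 against day 0 the log2 fold change was 3.03 ± 0.22 (SE) for Naip2 (edgeR adjusted p = 6.69e-06) and 3.12 ± 0.34 for Naip5 (edgeR adjusted p = 7.4e-05). For day 21 against day 0 it was 2.34 ± 0.22 for Naip2 (edgeR adjusted p = 9.23e-05) and 3.37 ± 0.34 for Naip5 (edgeR adjusted p = 0.000122). The split between these paralogs is uncertain: 36.9% of the 50-base windows of Naip5 transcripts and 19.1% of those of Naip2 also occur in transcripts of other genes, chiefly Naip relatives, and the labels do not say how such reads were counted.

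NLRC4 is the platform that the NAIPs engage. Nlrc4 (chr17:74426295-74459108, minus strand) had 2, 5 and 2 counts at day 0, 8, 7 and 8 counts at day 3, and 4, 2 and 3 counts at day 21, and it was left out of the test by the filter on low counts. Every day 3 library held more Nlrc4 counts than any library of the other days, but all 9 held few. The ratio of its share of all counts was 3.00 at day 3 over day 0, with an exact 95% interval of 1.34 to 7.36 that covers counting error only. Tested without a filter, its log2 fold change at day 3 against day 0 was 1.37 ± 0.58 (SE; edgeR adjusted p = 0.101).

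Pycard encodes ASC, which links the sensors to caspase-1. Pycard (chr7:127989708-127993867, minus strand) had 0.639, 0.479 and 0.402 FPKM at day 0, 3.77, 3.29 and 3.24 FPKM at day 3, and 2.23, 2.89 and 2.16 FPKM at day 21. The 3 days did not overlap. Pycard changed on the log2 scale by 2.70 ± 0.19 (SE) at day 3 against day 0 (edgeR adjusted p = 4.95e-06) and 2.12 ± 0.19 at day 21 against day 0 (edgeR adjusted p = 6.06e-05). An antisense gene, Gm45205, covers 12.8% of the exon bases of Pycard, and the use of strand in counting is not given, so reads of the pair cannot be told apart there.

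Start-site windows are shown for Nlrp3, Naip5, Aim2 and Pycard because these sensors and their adaptor were higher at both times and each window shown holds a match to a motif of an inflammatory or myeloid factor. A second Nlrp3 window, at chr11:59542436-59542735, holds no match and is not shown. The windows are RefSeq promoters of build GRCm38.p6, from 250 bases before to 50 bases after the start, read 5′ to 3′ on the strand of the gene, at chr11:59541319-59541618 (plus) for Nlrp3, chr13:100247287-100247586 (minus) for Naip5, chr1:173420354-173420653 (plus) for Aim2 and chr7:127993818-127994117 (minus) for Pycard. Capitals mark a kappa B match in Nlrp3 and Naip5 and a match to the PU.1 sequence GAGGAAGT, on either strand, in Aim2 and Pycard.
Nlrp3: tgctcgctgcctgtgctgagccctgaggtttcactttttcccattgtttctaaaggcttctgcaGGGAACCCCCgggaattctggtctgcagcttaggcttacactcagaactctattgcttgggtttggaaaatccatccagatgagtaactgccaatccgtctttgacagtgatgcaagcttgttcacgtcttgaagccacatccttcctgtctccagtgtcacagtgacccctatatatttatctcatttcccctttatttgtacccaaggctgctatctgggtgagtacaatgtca
Naip5: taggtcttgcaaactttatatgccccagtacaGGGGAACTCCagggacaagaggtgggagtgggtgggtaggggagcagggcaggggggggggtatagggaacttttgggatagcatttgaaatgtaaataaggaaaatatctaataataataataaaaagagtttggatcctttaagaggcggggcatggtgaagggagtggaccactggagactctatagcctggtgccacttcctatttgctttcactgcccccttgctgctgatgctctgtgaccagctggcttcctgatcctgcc
Aim2: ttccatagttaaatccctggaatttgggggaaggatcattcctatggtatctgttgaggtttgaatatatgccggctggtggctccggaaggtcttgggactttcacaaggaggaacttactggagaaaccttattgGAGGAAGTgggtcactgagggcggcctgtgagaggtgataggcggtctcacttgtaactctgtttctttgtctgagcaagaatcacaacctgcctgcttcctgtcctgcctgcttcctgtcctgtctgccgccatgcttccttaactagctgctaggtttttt
Pycard: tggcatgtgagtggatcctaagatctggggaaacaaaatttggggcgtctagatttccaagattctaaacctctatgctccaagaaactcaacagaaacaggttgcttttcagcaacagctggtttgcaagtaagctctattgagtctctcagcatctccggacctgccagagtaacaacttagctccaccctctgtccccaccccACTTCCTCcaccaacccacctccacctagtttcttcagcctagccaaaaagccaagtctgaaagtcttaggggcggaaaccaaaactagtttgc
Windows were found for 9 of the 10 members, with 2 for Nlrp3 and 10 in all. The kappa B motif was in 2 of the 10 windows, those of Nlrp3 and Naip5, and in 8.46% of 32851 RefSeq windows of the same length. The PU.1 sequence was in 2 of the 10 and in 3.2% of all windows. The interferon regulatory element GAAANNGAAA, held by 3.44% of all windows, and the AP-1 motifs TGACTCA and TGAGTCA, held by 5.2%, had no match in the 10 windows on either strand. A match is only a match of letters.

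Gasdermin D is the pore former that caspase-1 and caspase-11 cut. Gsdmd (chr15:75862339-75867404, plus strand) had 1.45, 1.25 and 1.34 FPKM at day 0, 6.89, 7.25 and 6.49 FPKM at day 3, and 4.43, 6.12 and 5.08 FPKM at day 21. All day 3 and day 21 libraries stood above all day 0 libraries, and all day 21 libraries below all day 3 libraries. Gsdmd changed on the log2 scale by 2.29 ± 0.15 (SE) at day 3 against day 0 (edgeR adjusted p = 3.28e-06) and 1.82 ± 0.15 at day 21 against day 0 (edgeR adjusted p = 4.09e-05).

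Gasdermin E is a pore former that can turn apoptosis into lytic death. Gsdme (chr6:50188888-50263862, minus strand) had 1.19, 0.874 and 0.962 FPKM at day 0, 0.573, 0.550 and 0.534 FPKM at day 3, and 0.650, 0.956 and 0.646 FPKM at day 21. It moved opposite to Gsdmd: every day 3 library lay below every day 0 library, while day 21 replicate 2 fell within the day 0 range. The log2 fold change was -0.92 ± 0.17 (SE) at day 3 against day 0 (edgeR adjusted p = 0.00219). Its value at day 21 against day 0 was -0.55 ± 0.17 (edgeR adjusted p = 0.0377), and this call was lost in 13 of 20 alternative analyses, with adjusted p up to 0.205. It was also lost when any library other than day 21 replicate 2 was left out (adjusted p between 0.05 and 0.161). Neuron markers moved with Gsdme, with 8 of 8 lower at day 3 and 6 of 8 lower at day 21 against day 0. Over all tested genes, 19.5% were lower at day 3 and 11.3% at day 21. The part of neurons in the Gsdme result was not tested.

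IL-1 beta is the inflammatory cytokine that caspase-1 matures. Il1b (chr2:129364570-129371139, minus strand) had 3, 0 and 2 counts at day 0, 35, 44 and 35 counts at day 3, and 23, 7 and 12 counts at day 21. In FPKM it stood at 0.0531, 0 and 0.0483 at day 0, 0.924, 1.04 and 0.998 at day 3, and 0.621, 0.205 and 0.357 at day 21. The days did not overlap, and the 3 day 21 libraries were spread more widely than those of day 3. The ratio of count shares was 26.7 at day 3 over day 0 (exact 95% interval 11.1 to 83.9) and 10.8 at day 21 over day 0 (4.28 to 35.0), both covering counting error only. The log2 fold change was 4.60 ± 0.57 (SE) at day 3 against day 0 (edgeR adjusted p = 0.000183) and 3.22 ± 0.64 at day 21 against day 0 (edgeR adjusted p = 0.00536).

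IL-18 is the other cytokine that caspase-1 matures, and its transcript is present in resting tissue. Il18 (chr9:50575273-50581837, plus strand) had 11.8, 8.62 and 8.82 FPKM at day 0, 9.92, 10.0 and 8.26 FPKM at day 3, and 12.6, 23.8 and 12.5 FPKM at day 21. The day 0 and day 3 ranges overlapped, and all day 21 libraries lay above both, with day 21 replicate 2 far above the other two. The log2 fold change was -0.11 ± 0.25 (SE) at day 3 against day 0 (edgeR adjusted p = 0.76) and 0.61 ± 0.25 at day 21 against day 0 (edgeR adjusted p = 0.0996). The value at day 21 against day 0 was smaller without day 21 replicate 2, at a log2 fold change of 0.25 (edgeR adjusted p = 0.218). It passed with voom sample weights, at 0.37 (limma adjusted p = 0.0451), and, in an analysis added after the data were seen, without day 0 replicate 1 and day 21 replicate 2 together, at 0.40 (edgeR adjusted p = 0.045).

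**Figure D2:**
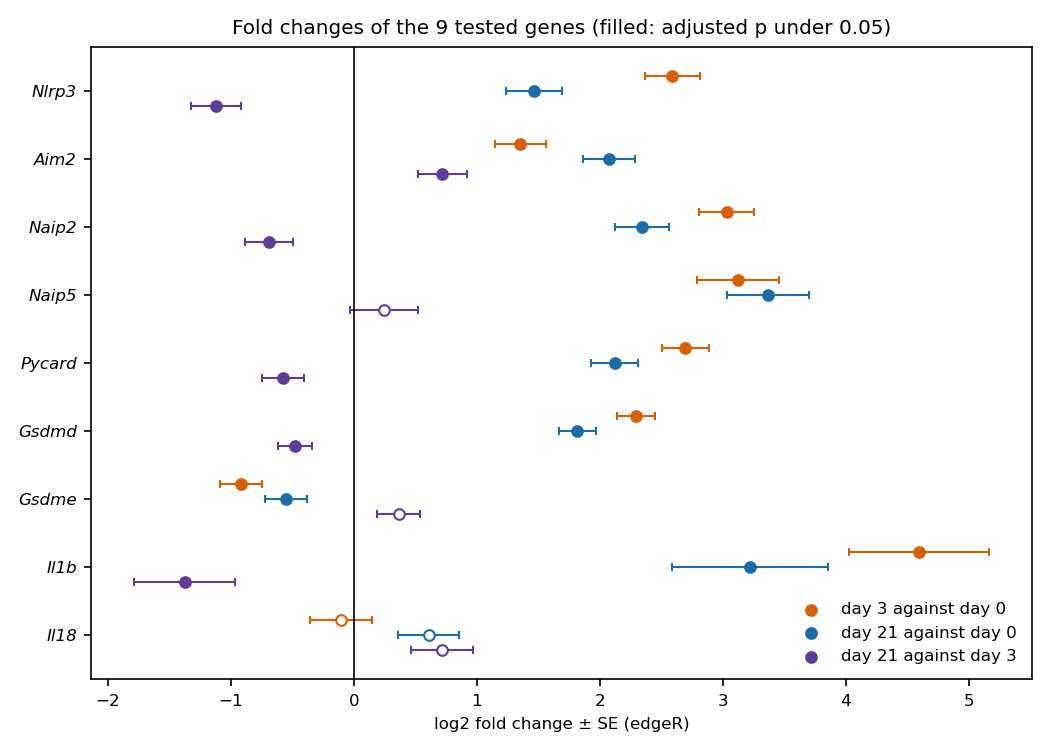
Log2 fold changes of the 9 tested genes with whiskers of 1 SE, by edgeR, for day 3 against day 0 (orange), day 21 against day 0 (blue) and day 21 against day 3 (purple); filled points have an adjusted p under 0.05. Nlrp3 and Aim2 lie on opposite sides of 0 in purple, at -1.13 and 0.72, and Gsdme lies below 0 at both times against day 0.

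Between the later times, 5 of the 9 tested members were lower at day 21 than at day 3 and 1 was higher, where 16.1% of all tested genes were lower and 11.7% were higher (27.8% in either direction). Aim2 rose, with a log2 fold change of 0.72 ± 0.20 (SE; edgeR adjusted p = 0.024). Nlrp3 fell, with -1.13 ± 0.20 (edgeR adjusted p = 0.00375), as did Il1b with -1.38 ± 0.41 (edgeR adjusted p = 0.0351), Naip2 with -0.69 ± 0.20 (edgeR adjusted p = 0.0292), Pycard with -0.58 ± 0.17 (edgeR adjusted p = 0.0342) and Gsdmd with -0.48 ± 0.14 (edgeR adjusted p = 0.0323). Naip5 (0.24 ± 0.28, edgeR adjusted p = 0.559), Gsdme (0.37 ± 0.17, edgeR adjusted p = 0.154) and Il18 (0.71 ± 0.25, edgeR adjusted p = 0.0631) did not pass. Only the Nlrp3 call, of these 6, held in every alternative that tested it. Aim2 was lost without day 3 replicate 1 or without day 3 replicate 3 (adjusted p = 0.0955 each) and without day 21 replicate 3 (0.0688). The Gsdmd call was lost in 12 of 21 alternatives, Pycard in 10 of 21, Il1b in 7 of 20 and Naip2 in 5 of 21, with adjusted p no higher than 0.123. Schwann cell markers moved with the members that fell, with 6 of 6 lower at day 21 than at day 3. Of the tested monocyte and macrophage markers 5 of 9 were lower and 0 higher, and of the astrocyte markers 3 of 6 were lower and 1 higher. Of the microglia markers 1 of 8 was lower and 0 higher, and of the neutrophil markers 0 of 9 were lower and 1 higher. The part of these cell types in the member results was not tested.

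The order of the members by mean FPKM changed with the days. Il18 was the most abundant at every time, with 9.76 ± 1.80 FPKM at day 0, 9.39 ± 0.980 FPKM at day 3 and 16.3 ± 6.47 FPKM at day 21 (SD, n = 3 each), and Gsdmd came next with 1.35 ± 0.102, 6.88 ± 0.381 and 5.21 ± 0.850 FPKM in the same order of days. Neither overlapped its neighbours in rank at any time. In order of level Gsdme took rank 3 at day 0, rank 9 at day 3 and rank 7 at day 21. Il1b took rank 10 at day 0 with 0.0338 ± 0.0294 FPKM, where its range overlapped that of Nlrc4, and rank 8 at day 3 with 0.989 ± 0.0600 FPKM, between Nlrp3 and Gsdme with no overlap. Naip5, Aim2 and Nlrp3 were neighbours at day 3, at 1.33 ± 0.194, 1.18 ± 0.204 and 1.14 ± 0.0848 FPKM, and did not differ from the next beyond their spread. At day 21 Pycard, Aim2, Naip5 and Naip2 overlapped in a chain, at 2.43 ± 0.401, 2.04 ± 0.238, 1.65 ± 0.402 and 1.63 ± 0.390 FPKM. The lengths behind these FPKM values ran from 714 bases for Il18 to 15816 for Gsdme, so the order holds for the gene models used by the submitters.

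Ratios within a library cancel its scaling. Aim2 to Nlrp3, a pair chosen after the values were seen, gave 2.88, 2.17 and 2.32 at day 0, 0.965, 1.30 and 0.854 at day 3, and 3.12, 3.78 and 4.36 at day 21. Nlrp3 was near the level of Aim2 at day 3 and below it at the other times, with no overlap between days. Il18 to Il18bp, the transcript of the secreted protein that captures IL-18, gave 6.86, 5.43 and 5.88 at day 0, 1.44, 1.52 and 1.37 at day 3, and 2.34, 3.41 and 2.44 at day 21. Il18bp itself had 1.60 ± 0.113 FPKM at day 0, 6.50 ± 0.428 FPKM at day 3 and 5.84 ± 0.992 FPKM at day 21 (SD, n = 3 each). The mean log2 difference of the Il18 ratio was -2.06 at day 3 against day 0 and -1.17 at day 21 against day 0. Each had a two-sided exact permutation p of 0.1, the smallest that 3 libraries against 3 allow.

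Il1b was set against Il1rn, the receptor antagonist of IL-1, in the same way. The ratio was 0.900, 1.32 and 1.44 at day 3 and 2.56, 0.804 and 0.880 at day 21, and 2 of the day 0 libraries held no Il1rn count. The day 21 and day 3 ranges overlapped, with a mean log2 difference of 0.03 at day 21 against day 3 and a two-sided exact permutation p of 1. Naip5 to Naip2, also chosen after the values were seen and subject to the shared sequence above, gave 0.755, 0.569 and 0.213 at day 0, 0.563, 0.593 and 0.440 at day 3, and 1.30, 0.809 and 0.983 at day 21.

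**Figure D3:**
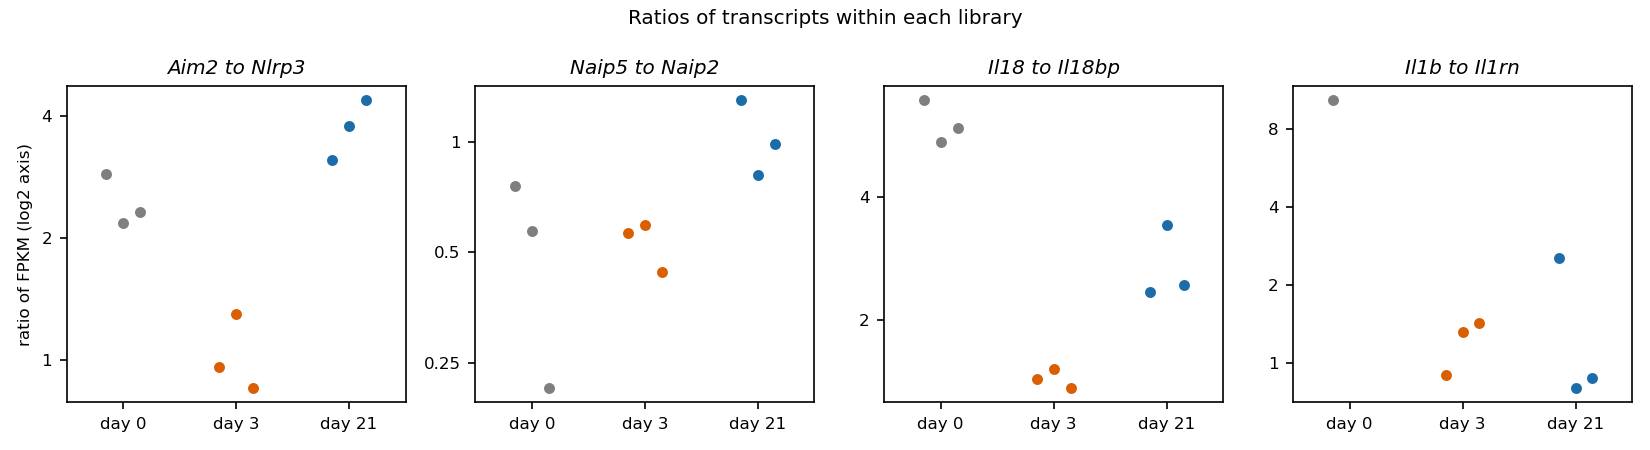
Ratios of FPKM within each library on log2 axes, 1 point per library at day 0, day 3 and day 21. Aim2 to Nlrp3 is lowest at day 3, Il18 to Il18bp is highest at day 0, and Il1b to Il1rn has a value in only 1 day 0 library, where it rests on 1 Il1rn count.

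Most markers of myeloid cells were higher than at day 0 at both times, as were 7 of the 9 tested members. Gsdme was lower and Il18 did not pass. The 27 microglia, monocyte-macrophage and neutrophil markers summed to 135.8, 111.5 and 115.7 FPKM at day 0, 936.5, 928.1 and 960.8 FPKM at day 3, and 766.7, 1097 and 753.4 FPKM at day 21. Of the 9 tested monocyte and macrophage markers all 9 were higher at both times against day 0. Of the 9 tested neutrophil markers 7 were higher at day 3 and 9 at day 21. Of the 8 microglia markers 6 were higher at day 3 and 5 at day 21. Over all tested genes the shares were 24.8% at day 3 and 17.9% at day 21. None of these markers was at 0 in all libraries of a group. In bulk tissue, a change in the number of cells of a type and a change in RNA per cell cannot be told apart.

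Per 1000 FPKM of these markers, Nlrp3 stood at 1.55 ± 0.575 at day 0, 1.21 ± 0.0679 at day 3 and 0.643 ± 0.110 at day 21 (SD, n = 3 each), and its day 3 and day 0 ranges overlapped. Pycard stood at 4.16 ± 0.627, 3.65 ± 0.336 and 2.81 ± 0.150 in the same order of days, again with overlap between day 3 and day 0. Naip2 and Naip5 overlapped in all comparisons on this scale. Gsdmd was lower per marker unit at day 3 and day 21 than at day 0, at 11.2 ± 0.449 at day 0, 7.31 ± 0.531 at day 3 and 6.03 ± 0.623 at day 21, with no overlap. Aim2 stood at 3.70 ± 0.988, 1.25 ± 0.234 and 2.40 ± 0.473, lowest at day 3. Il1b was the exception in the other direction at day 3, at 0.269 ± 0.234 at day 0, 1.05 ± 0.0693 at day 3 and 0.490 ± 0.312 at day 21, with no overlap between day 3 and either other day. Il18 stood at 80.2 ± 6.03, 9.99 ± 1.21 and 18.3 ± 2.96. The part of cell numbers in the member results was not tested.

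**Figure D4:**
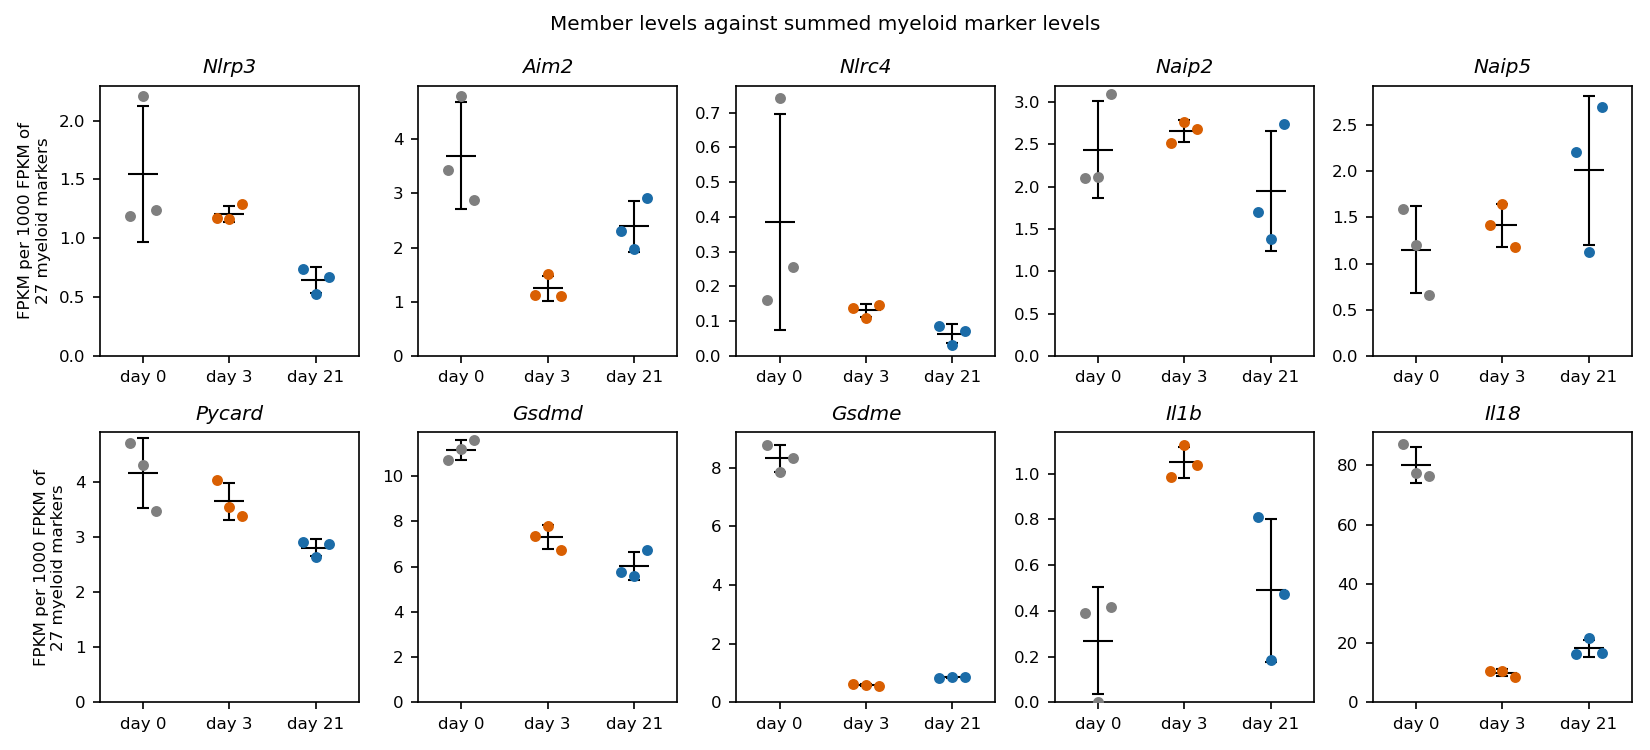
Each gene's FPKM per 1000 FPKM of 27 myeloid markers in the same library, on linear axes that start at 0, with 1 point per library, group means as bars and SDs as whiskers (3 libraries per day). By group mean on this scale, Il1b and Naip2 are highest at day 3 and Naip5 at day 21. Nlrp3, Aim2, Nlrc4, Pycard, Gsdmd, Gsdme and Il18 are highest at day 0.

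Of 74 other genes of the pathway in 7 lists, 60 were tested. The lists were chosen with earlier results of these data known, so their counts and medians are a description and not a test of the pathway. Against day 0, 50 of the 60 were higher and 1 was lower at day 3, and 37 were higher and 1 was lower at day 21. Of all tested genes, 24.8% were higher and 19.5% lower at day 3, and 17.9% were higher and 11.3% lower at day 21. The median log2 fold change was 1.85 at day 3 and 1.18 at day 21, beside 0.01 and 0.02 over all tested genes. At day 21 against day 3, 2 were higher and 23 were lower, with a median of -0.41, beside 11.7% higher, 16.1% lower and a median of 0.02 over all tested genes.

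Among the caspases of pyroptosis, Casp1, Casp4 and Casp8 were higher at both times against day 0. Casp1, the protease of the inflammasome, had 0.749 ± 0.225 FPKM at day 0, 2.70 ± 0.542 FPKM at day 3 and 3.23 ± 1.10 FPKM at day 21 (SD, n = 3 each), with log2 fold changes against day 0 of 1.77 ± 0.30 (SE; edgeR adjusted p = 0.0013) at day 3 and 1.95 ± 0.30 (edgeR adjusted p = 0.00159) at day 21. Casp4, the mouse caspase-11 gene that senses cytosolic lipopolysaccharide, had 0.0581 ± 0.0404, 0.801 ± 0.0717 and 0.778 ± 0.226 FPKM in the same order of days. Casp8, which can cut gasdermin D, had 0.742 ± 0.201, 5.53 ± 0.160 and 2.72 ± 0.407 FPKM and fell at day 21 against day 3, with a log2 fold change of -1.10 ± 0.19 (SE; edgeR adjusted p = 0.00346).

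Of the 6 tested genes in the list of other sensors and related genes, 6 were higher at day 3 and 4 at day 21 against day 0. Over all tested genes the shares were 24.8% at day 3 and 17.9% at day 21. Card6 and Nlrx1 were among the higher ones at day 3, with log2 fold changes of 1.02 ± 0.24 (SE; edgeR adjusted p = 0.00782) and 0.59 ± 0.13 (edgeR adjusted p = 0.00564), and both fell again at day 21 against day 3, Card6 by a call that 10 of 20 alternatives lost and Nlrx1 by a call that 3 of 21 lost. The Nlrx1 call was lost without day 21 replicate 1 (adjusted p = 0.0538), day 3 replicate 2 (0.0523) or day 3 replicate 3 (0.0522). Of the 2 tested genes among the other gasdermins and the rupture protein, both were higher at day 3 and neither passed at day 21. The same shares of all tested genes, 24.8% and 17.9%, stand beside these counts. Ninj1, whose protein breaks the plasma membrane of dying cells, had 7.97 ± 2.02 FPKM at day 0, 18.2 ± 3.90 FPKM at day 3 and 12.8 ± 2.99 FPKM at day 21 (SD, n = 3 each), with a log2 fold change of 1.13 ± 0.25 (SE) at day 3 against day 0 (edgeR adjusted p = 0.00514).

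All 11 tested genes of the guanylate-binding protein and PYHIN list were higher at both times against day 0. Among them 1, Gbp3, was higher at day 21 than at day 3. Over all tested genes, 24.8% were higher at day 3 and 17.9% at day 21 against day 0. In the comparison of day 21 with day 3, 11.7% of all tested genes were higher. Guanylate-binding proteins open bacterial membranes, and PYHIN genes are relatives of Aim2. Gbp3 had 0.813 ± 0.124 FPKM at day 0, 2.28 ± 0.257 FPKM at day 3 and 4.003 ± 0.380 FPKM at day 21 (SD, n = 3 each), the same order of days as Aim2, with a log2 fold change of 0.74 ± 0.15 (SE) at day 21 against day 3 (edgeR adjusted p = 0.00621). Mnda and Ifi204, from the PYHIN family, had log2 fold changes of 6.11 ± 0.54 (SE; edgeR adjusted p = 2.08e-05) and 4.46 ± 0.32 (edgeR adjusted p = 5.54e-06) at day 3 against day 0. Gbp2 had 1.85 ± 0.388, 8.84 ± 0.470 and 9.35 ± 1.07 FPKM at day 0, day 3 and day 21.

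Among the regulators upstream of NLRP3, 6 of 11 were higher and 1 was lower at day 3, and 4 were higher and 1 was lower at day 21, against day 0. Over all tested genes the shares were 24.8% higher and 19.5% lower at day 3, and 17.9% higher and 11.3% lower at day 21. Clic1, a chloride channel linked to NLRP3 activation, had 5.25 ± 1.21 FPKM at day 0, 55.9 ± 1.26 FPKM at day 3 and 24.4 ± 9.57 FPKM at day 21 (SD, n = 3 each). Kcnk6, a potassium channel of the efflux that NLRP3 senses, had 0.909 ± 0.167, 6.62 ± 0.447 and 3.03 ± 0.364 FPKM. P2rx7, the ATP-gated channel upstream of NLRP3, had 1.81 ± 0.251, 4.26 ± 0.509 and 2.69 ± 0.505 FPKM, with a log2 fold change of 1.18 ± 0.18 (SE) at day 3 against day 0 (edgeR adjusted p = 0.000603). Trpm2, a calcium channel opened by oxidative stress, was the lower one, at -1.26 ± 0.15 at day 3 (edgeR adjusted p = 0.000131) and -0.69 ± 0.15 at day 21 (edgeR adjusted p = 0.00763).

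In the IL-1 and IL-18 axis, 8 of 12 tested genes were higher at day 3 and 6 at day 21 against day 0, beside 24.8% and 17.9% of all tested genes. Il1rn had 1, 0 and 0 counts at day 0, 134, 115 and 84 counts at day 3, and 31, 30 and 47 counts at day 21. The receptor Il1r1 had 0.575 ± 0.0419 FPKM at day 0, 5.44 ± 0.0878 FPKM at day 3 and 1.53 ± 0.264 FPKM at day 21 (SD, n = 3 each), and the decoy receptor Il1r2 had 0.172 ± 0.0480, 1.19 ± 0.156 and 0.297 ± 0.0749 FPKM. Both fell at day 21 against day 3, with log2 fold changes of -1.90 ± 0.15 (SE; edgeR adjusted p = 4.95e-05) and -2.07 ± 0.27 (edgeR adjusted p = 0.000627). Il1a, the sister cytokine that needs no caspase-1, had 0.151 ± 0.171, 1.02 ± 0.234 and 1.57 ± 0.0421 FPKM at day 0, day 3 and day 21 and did not pass at day 21 against day 3, with a log2 fold change of 0.55 ± 0.47 (edgeR adjusted p = 0.427). The difference between Il1a and Il1b was not tested.

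Of 14 Toll-like receptor and NF-kB genes that prime the pathway, 13 were higher at day 3 and 9 at day 21 against day 0 (24.8% and 17.9% of all tested genes), and 9 were lower at day 21 than at day 3 (16.1% of all tested genes). Tlr2 had 1.32 ± 0.276 FPKM at day 0, 9.31 ± 0.349 FPKM at day 3 and 8.27 ± 1.38 FPKM at day 21 (SD, n = 3 each). Nfkbia, the NF-kB inhibitor that NF-kB itself induces, had 18.7 ± 1.56, 50.3 ± 0.537 and 21.7 ± 3.26 FPKM, and its log2 fold change at day 21 against day 3 was -1.29 ± 0.12 (SE; edgeR adjusted p = 9.27e-05). Myd88, the adaptor of these receptors, was lower at day 21 than at day 3 by the same test, with -1.02 ± 0.13 (edgeR adjusted p = 0.000627).

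**Figure D5:**
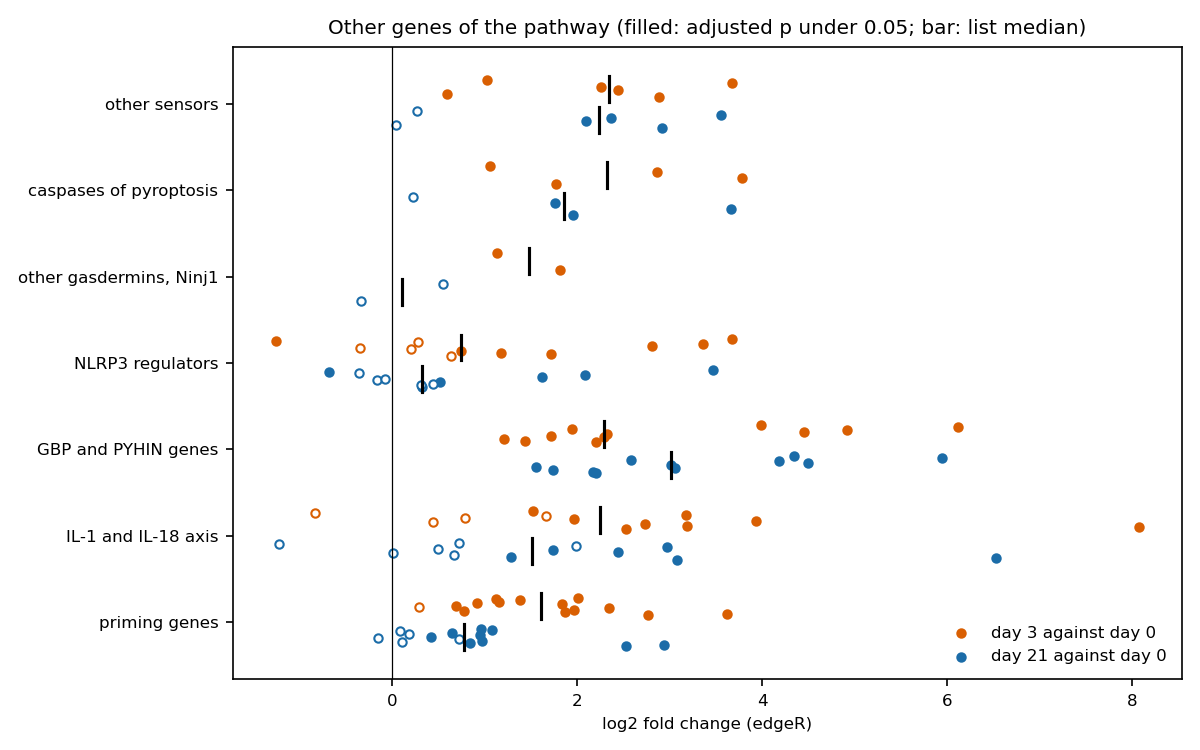
Log2 fold changes by edgeR of the tested genes in 7 pathway lists, 1 point per gene, for day 3 against day 0 (orange) and day 21 against day 0 (blue); filled points have an adjusted p under 0.05 and black bars are list medians. All points of the guanylate-binding protein and PYHIN list are filled and right of 0 at both times, and Trpm2 is the filled point left of 0.

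The genes whose pattern over the 9 libraries came closest to a member were found by the root mean square difference of values scaled to the largest change from day 0. Among 7425 candidate genes, Bcl3, an NF-kB cofactor, was nearest to Nlrp3 at 0.0369, followed by Tmem198b at 0.0405 and Lsp1 at 0.0436. Gsdmd was nearest to Kdelc2 at 0.0266, Cd9 at 0.0299 and Rnase4 at 0.0363. Il1b was nearest to Zfp36l2 at 0.0576, Fli1 at 0.0649 and Ptpn12 at 0.0688. Aim2 was nearest to Cst7, a cystatin gene of microglia and lymphocytes, at 0.0882, then Rbm39 at 0.0896 and Clk1 at 0.0913. Il18 had no gene as near as these, with Sec11c at 0.123 and Gnptg at 0.129.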

How the data were processed

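Gene counts and FPKM of 9 spinal cord libraries were used as the authors deposited them in one table. Per the submitters' processing notes, HISAT2 and StringTie were used, without versions. The notes name GRCh38, although the organism is mouse; of 34267 gene IDs also in GENCODE M21, 27686 have the same GRCm38 locus, and coordinates are from the table. The deposited FPKM values equal counts per total count and gene length to within 0.00161% over 12001 genes.

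Counts were tested with edgeR 4.0.16 (R 4.3.3; TMM scaling, filterByExpr, robust quasi-likelihood fit of all libraries, 6 residual degrees of freedom), with Benjamini-Hochberg adjustment over 16494 genes and a threshold of 0.05. SE is the log2 fold change divided by the root of F. The test was checked on simulated data with 200 changed genes and no outlying library. For day 3 against day 0, with 16271 genes, 98.5% of 4-fold, 55.2% of 2-fold and 10.4% of 1.5-fold changes were recovered. For day 21 against day 0, with 16265 genes, the shares were 96.8%, 58.2% and 4.55%. Of the simulated calls, 3.57% and 5.5% were false. Far more genes were called in the real data, so these rates describe the simulation only. DESeq2 1.42.0 and limma 3.58.1 served as alternatives. Exact permutation tests used scipy 1.17.1.

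The members and lists were chosen with earlier results of these data known. Of each pathway list, up to 4 called genes were named, by largest change, if the higher group averaged 1 FPKM or more, and Casp1, Casp4, Il1rn, Il18bp, Ninj1 and P2rx7 whatever their values. Of 152 list entries 150 matched. For likeness, the 3 nearest tested genes of at least 5 FPKM in a group were named for Nlrp3, Aim2, Gsdmd, Il1b and Il18. Some genes that these rules name are not reported here.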

Additional observations from a re-analysis of the deposited data

Results flagged for a closer look

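For 6 members, the change from day 0 differed between day 21 and day 3 by the test of the difference itself. That test is the edgeR contrast of day 21 against day 3, which 27.8% of all tested genes passed. The difference on the log2 scale was -1.13 for Nlrp3, 0.72 for Aim2, -0.69 for Naip2, -0.58 for Pycard, -0.48 for Gsdmd and -1.38 for Il1b. Of these 6, only Aim2 had the larger effect at day 21. Aim2 was higher in 3 of 3 day 21 libraries than in any day 3 library. The differences of 0.245 for Naip5, 0.365 for Gsdme and 0.715 for Il18 did not pass. Nlrp3, Naip2, Pycard, Gsdmd and Il1b were lower in 3 of 3 day 21 libraries than in any day 3 library. For these genes and Aim2, the separation comes from the same libraries as the calls. The share of all genes that separate in this way was not computed.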

How the results depend on the processing

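The 7 members higher than day 0 kept that call in every alternative that tested them, at both times, except Il1b at day 21 with limma on log2(FPKM + 5) (adjusted p = 0.0621). A strict filter on low values tested 6 members, of which 5 were higher and 0 lower at day 3. The cause of the other changes was not tested. Gsdme, the lower member at day 21 against day 0, was lost (0 lower members) with 2 groups only, with limma at each pseudocount and with the replicate block, and leaving out 1 library gave 0 to 1; the strict filter did not test it. Il18 joined Aim2 as a higher member at day 21 against day 3, making 2, with DESeq2, with voom sample weights and without day 0 replicate 1 and day 21 replicate 2, and leaving out 1 library gave 0 to 1. Without day 21 replicate 3 the 1 was Il18 (adjusted p = 0.0459), and Aim2 was lost (0.0688). In that comparison 2 members were lower with 2 groups only or with the replicate block, 3 with limma at 0.1, without a filter or with the strict filter, and 1 to 5 on leaving out 1 library.

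Over all genes, lower calls at day 3 against day 0 numbered 3217, 5215 with sample weights, 4976 without both of those libraries and 2361 to 4891 on leaving out 1. For day 21 against day 0 they numbered 1864, 801 with 2 groups only, 1019 with limma at 0.1, 3946 with weights, 3920 without both and 1011 to 3748. For day 21 against day 3, higher calls numbered 1928, 4419 with weights, 4570 without both and 1006 to 3941, and lower calls 2657, 4832, 4802 and 1887 to 4305. The highest count of each range came without day 21 replicate 2.

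Same-numbered libraries of different days deviated together at correlations of -0.146 to 0.107. Differently numbered libraries were not set beside them, so these values cannot decide whether the replicate numbers mark pairs. The replicate block lost Pycard (adjusted p = 0.0519), Gsdmd (0.0676) and Il1b (0.0504) at day 21 against day 3 and Gsdme (0.0721) at day 21 against day 0.

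Values that were not called changed sign as follows. For single genes, the ranges cover leaving out 1 library and leaving out day 0 replicate 1 and day 21 replicate 2 together. The log2 difference of Il1b to Il1rn at day 21 against day 3, 0.03, ran from -0.506 to 0.329 on leaving out 1 library. Il18 at day 3 against day 0 ran from -0.179 to 0.022, with 0.021 without day 0 replicate 1 and 0.022 without both libraries. For day 21 against day 3, Casp1 ran from -0.113 to 0.335 (-0.096 without both, -0.065 with weights), Casp4 from -0.347 to 0.048, Gbp2 from -0.062 to 0.076 (-0.045 without both, -0.084 with weights) and Ifi204 from -0.054 to 0.133. In the comparison of day 21 with day 0, Nfkbia ran from -0.030 to 0.149 and Nlrx1 from -0.058 to 0.159 (-0.014 without a filter). Depth limits Nlrc4 and the day 0 level of Il1b, which rest on 9 and 5 counts at day 0.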

Other observations

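Mefv, which encodes the sensor pyrin, had 0 counts in all libraries of day 0, 15, 10 and 4 counts at day 3, and 0 counts in all libraries of day 21. A count of 0 allows up to 3 counts. The filter on low counts left it out. Tested without that filter, it passed at day 3 against day 0 (edgeR adjusted p = 0.00827) and at day 21 against day 3 (edgeR adjusted p = 0.0178). Nlrp1a, another sensor gene, had 4, 1 and 1 counts at day 0, 16, 18 and 7 counts at day 3, and 3, 5 and 6 counts at day 21.

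The chains of the IL-18 receptor had different levels. Il18rap had 6, 2 and 1 counts at day 0, 43, 42 and 39 counts at day 3, and 16, 16 and 10 counts at day 21. Its log2 fold change was 3.93 ± 0.37 (SE; edgeR adjusted p = 3.15e-05) at day 3 and 2.43 ± 0.41 (edgeR adjusted p = 0.00247) at day 21, against day 0. Il18r1 was hardly counted, with 0 counts in the 3 day 0 libraries, 0, 2 and 1 counts at day 3, and 2, 4 and 5 counts at day 21. The T cell markers Cd3e, Cd3d and Cd3g were at 0 in all day 0 libraries and summed to 31, 16 and 29 counts at day 21, against 1, 1 and 3 counts at day 3.

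Nek7, the kinase that NLRP3 needs to assemble, did not follow the days. It had 4.23, 1.17 and 1.16 FPKM at day 0, 6.94, 1.88 and 1.68 FPKM at day 3, and 1.73, 5.19 and 1.98 FPKM at day 21, so that 1 library of each day stood apart from the other two. Il33, an alarmin of the IL-1 family, had 12.4, 11.8 and 10.7 FPKM at day 0, 20.1, 20.5 and 21.4 FPKM at day 3, and 23.8, 5.12 and 24.2 FPKM at day 21. Naip6, a relative of Naip5, had log2 fold changes of 3.67 ± 0.55 (SE; edgeR adjusted p = 0.000561) at day 3 and 3.55 ± 0.55 (edgeR adjusted p = 0.00156) at day 21 against day 0. Mefv, Nlrp1a, Il18rap, Il18r1, Nek7, Il33 and Naip6 were chosen after their values were seen.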
